A study of Mus musculus with 16 samples.

Results

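The T cell receptor complex and its proximal kinases and adaptors were followed through 10 genes. They are the CD3 chain genes Cd3d, Cd3e, Cd3g and Cd247, the CD8 coreceptor genes Cd8a and Cd8b1, the kinase genes Lck and Zap70, and the adaptor genes Lat and Lcp2. They were picked by name from the 17159 genes of the deposited depth-normalized table, and all 10 were among the 12469 genes tested. RNA had been sequenced from CD8+ T cells of C57BL/6 mice, with 16 libraries in all. Every library came from cells given a 2-day stimulation through CD3 and CD28 and a further 36 h of culture in a test medium. The media were supernatant of the mouse melanoma line B16F10 to which methionine had been added (supplemented supernatant), that supernatant as collected (supernatant), fresh medium lacking methionine (methionine-free medium), and fresh medium with it (complete medium), each with 4 libraries. Supplemented supernatant and complete medium are called the media with methionine below, and the other 2 the media without added methionine, since the labels do not say how much the supernatant still held. The design compares media with and without methionine, an amino acid that cells use for protein synthesis and as the source of methyl groups. The labels give neither the methionine concentrations, nor the age or sex of the mice, nor whether the 4 libraries of a medium came from separate animals or cultures. The p-values therefore measure the spread between libraries, which may be technical.

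The T cell receptor recognises peptide on a major histocompatibility complex molecule but has no signalling domain of its own. It signals through the CD3 delta, epsilon, gamma and zeta chains, whose cytoplasmic tyrosine motifs are phosphorylated by the kinase LCK, which the CD8 coreceptor brings to the receptor. The kinase ZAP-70 then binds the phosphorylated motifs and phosphorylates the membrane adaptor LAT and the cytosolic adaptor SLP-76, the product of Lcp2, on which the enzymes of the calcium, Ras and actin branches assemble.

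Reads per library, recovered from the deposited values, averaged 38.0 M ± 2.73 in supplemented supernatant, 32.9 M ± 6.10 in supernatant, 34.5 M ± 2.10 in methionine-free medium and 35.4 M ± 7.63 in complete medium (SD, n = 4 each). The 10 genes were deeply covered, with between 2692 reads (Zap70) and 46378 reads (Cd8a) in a library. The spread between libraries is used as the error throughout. The label of the cells was checked against markers. Cd8a had at least 24022 depth-normalized reads in every library, and Cd4 averaged 137, 172, 163 and 182 in supplemented supernatant, supernatant, methionine-free medium and complete medium. Of the other CD4 T cell markers, Foxp3, Zbtb7b and Cd40lg were higher in the media without added methionine. Ctla4 was higher in supernatant than in supplemented supernatant but lower in methionine-free than in complete medium. These markers are given with the marker lists of other cells at the end.

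Values below are depth-normalized reads, that is, gene read counts divided by the authors' factor for each library. Differences are log2 fold changes of (value + 1) with their standard error (SE) from limma, and a gene was called when its Benjamini-Hochberg adjusted p over all 12469 genes was below 0.05. The media moved most of the transcriptome, so the background is high. In supplemented supernatant against supernatant 83.7% of genes were called, and in methionine-free against complete medium 85.6%. The size and direction of each change are therefore given beside its call.

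In the media without added methionine, the transcripts of the receptor's signalling chains, of its kinases and of Lat were lower, and those of the coreceptor chains were not. In methionine-free against complete medium, 7 of the 10 genes fell, 2 rose and Cd8b1 was not called, against 42.3% of all genes called lower and 43.3% called higher. The median log2 fold change of the 10 was -0.70, against 0.0092 over all genes tested. In supplemented supernatant against supernatant the signs turned round. Of the 10 genes, 7 rose, 2 fell and Cd8b1 was again not called, against 41.8% of all genes called in each direction, and their median was 0.50, against -0.0041 over all genes tested. These are bulk RNA values, in which fewer cells of a type and less RNA per cell cannot be told apart.

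**Figure D1:**
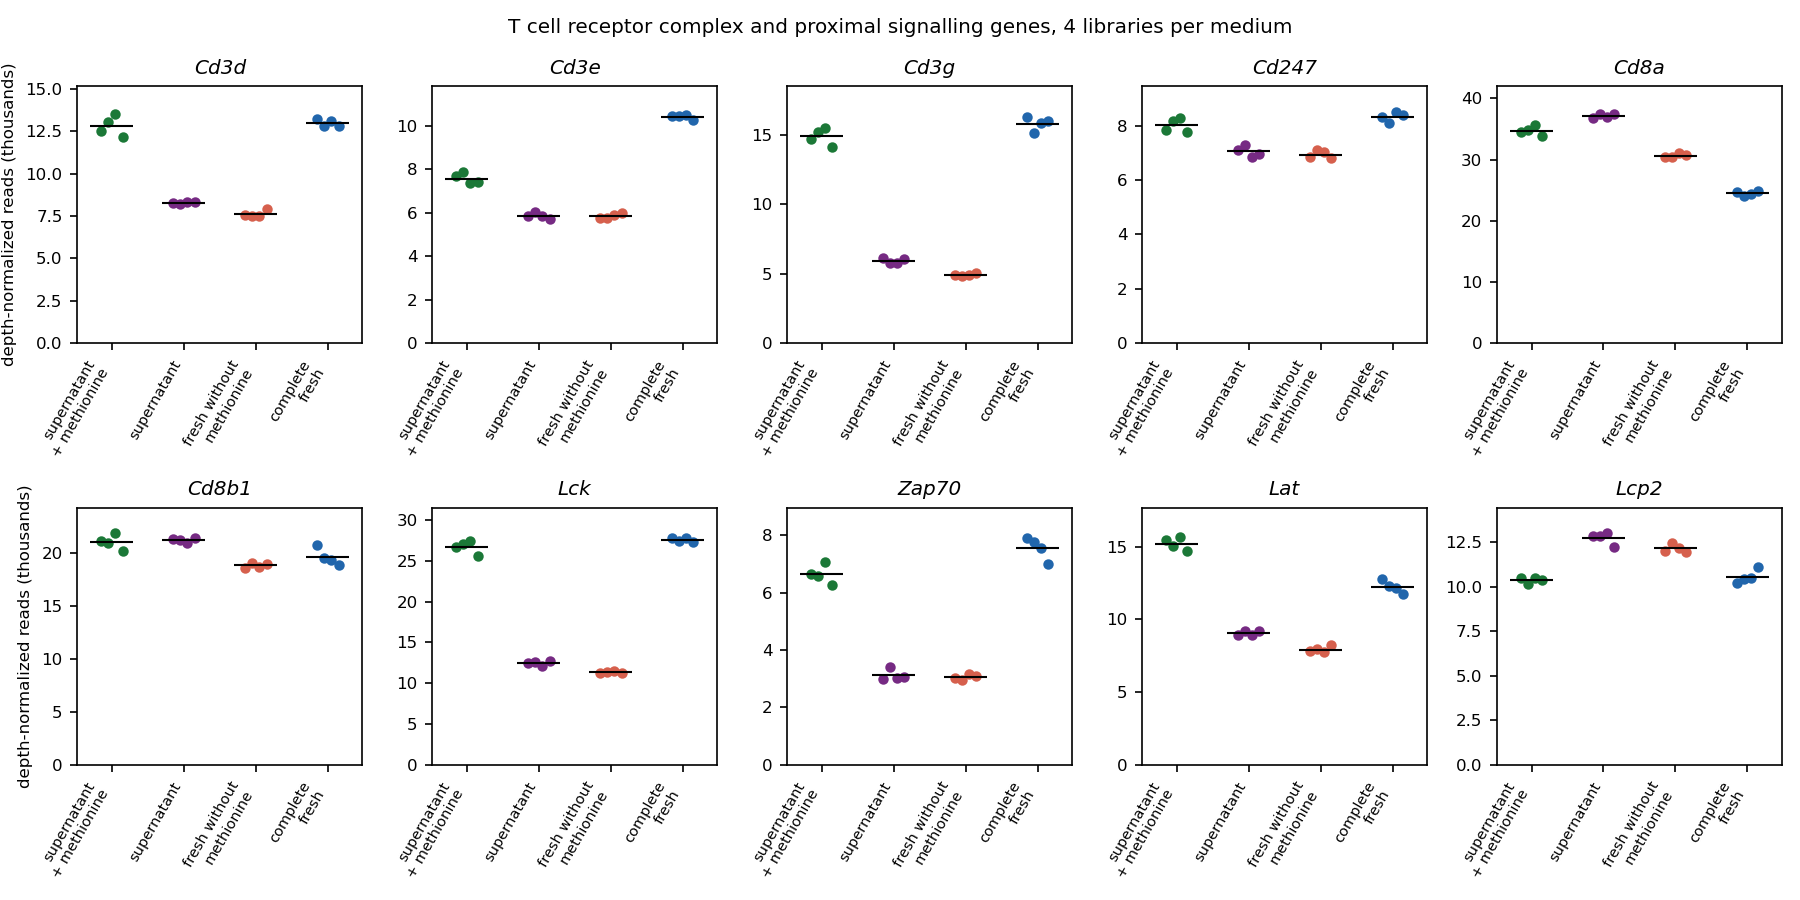
Depth-normalized reads (axes from 0) of the 10 genes in each of the 16 libraries. Points are libraries and lines are means of the 4 libraries of a medium. Cd3g, Lck and Zap70 sit low in supernatant and methionine-free medium, Cd8a sits lowest in complete medium, and Cd8b1 is nearly level.

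Among the CD3 chains, Cd3g, which encodes the gamma chain, had the widest range. It had 14719.9, 15207, 15512 and 14127 reads in the 4 libraries of supplemented supernatant, against 6097, 5791, 5781 and 6043 in supernatant. It had 4925, 4841, 4902 and 5056 reads in methionine-free medium, against 16252, 15115, 15826 and 15964 in complete medium. The libraries with methionine, in either kind of medium, lay well above all libraries of the other 2 media, and the supernatant libraries lay above those of methionine-free medium without overlap. Cd3g was 2.51-fold higher in supplemented supernatant than in supernatant (log2 fold change 1.33 ± 0.0310, adjusted p 8.23e-28) and 3.20-fold lower in methionine-free than in complete medium (-1.68 ± 0.0310, adjusted p 7.25e-31). Its mean in methionine-free medium was 31.2% of that in complete medium.

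Cd3d, the delta chain gene, followed the same order of media with a smaller range. It had 12493, 13075, 13492 and 12169 reads in supplemented supernatant, against 8283, 8190.4, 8356 and 8306 in supernatant. It had 7568, 7516, 7480.4 and 7941 reads in methionine-free medium, against 13220.0, 12826, 13103 and 12836 in complete medium. The 2 media with methionine overlapped, and the other 2 did not overlap with them or with each other. The addition of methionine to supernatant gave a rise of 0.63 ± 0.0299 (adjusted p 2.67e-19), and its absence from fresh medium a log2 fold change of -0.77 ± 0.0299 (adjusted p 6.43e-22).

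Cd3g and Cd3d are neighbours on mouse chromosome 9. In the GRCm38 annotation Cd3g lies at chr9:44969572-44980431 on the minus strand and Cd3d at chr9:44981786-44987339 on the plus strand, so that they are transcribed away from each other from starts 1355 bases apart. Cd3e lies beside them at chr9:44998740-45009627 on the minus strand. Over the 16 libraries the log2 values of Cd3g had a Pearson r of 0.998 with those of Cd3d and of 0.887 with those of Cd3e, given as a description, since the libraries share 4 media. Their promoter windows (RefSeq, GRCm38.p6, 250 bases before to 50 after the annotated start) are shown because the pair moved together and has divergent starts close to each other. Capitals mark matches on either strand to 3 motifs: AGGAAG, a core bound by ETS factors, TGTGGT, a core bound by RUNX factors, and CAGNTG, an E-box. The Cd3g window is chr9:44980382-44980681 on the minus strand and the Cd3d window chr9:44981536-44981835 on the plus strand.
Cd3g: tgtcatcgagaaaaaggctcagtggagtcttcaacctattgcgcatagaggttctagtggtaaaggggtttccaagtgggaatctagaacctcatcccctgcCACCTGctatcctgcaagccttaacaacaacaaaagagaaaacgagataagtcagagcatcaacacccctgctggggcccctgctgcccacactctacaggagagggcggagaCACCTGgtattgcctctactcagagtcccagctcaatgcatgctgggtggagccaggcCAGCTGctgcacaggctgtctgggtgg
Cd3d: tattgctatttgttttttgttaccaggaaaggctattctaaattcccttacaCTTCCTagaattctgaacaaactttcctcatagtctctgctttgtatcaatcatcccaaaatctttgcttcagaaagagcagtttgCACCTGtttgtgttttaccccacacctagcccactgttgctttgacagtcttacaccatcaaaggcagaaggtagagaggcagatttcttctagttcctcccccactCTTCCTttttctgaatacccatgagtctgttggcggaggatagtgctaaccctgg
The Cd3g window held 3 E-boxes and neither of the other motifs, and the Cd3d window held 2 ETS cores and 1 E-box. These motifs are common: over all 32851 mouse windows of that length, 35.4% held the ETS core, 16.8% the RUNX core and 51.4% the E-box. Of the 9 genes with a window (none was matched for Cd8b1), 7 held the ETS core, 3 the RUNX core and 9 the E-box in at least 1 of their windows. Some genes have more than 1 window, which raises their chance of a match. The motifs were chosen after the sequences had been read, and a match is not evidence of binding.

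Cd3e, the epsilon chain gene, differed from its neighbours in supplemented supernatant. It had 7683, 7873, 7364 and 7411 reads there, against 5861, 6062, 5872 and 5703 in supernatant. It had 5778, 5753, 5886 and 5980.3 reads in methionine-free medium, against 10462, 10449.5, 10528 and 10270.1 in complete medium. The libraries of supernatant and of methionine-free medium overlapped, whereas all 4 of supplemented supernatant lay between them and those of complete medium. Cd3e rose by 0.37 ± 0.0287 on addition of methionine to supernatant (adjusted p 1.34e-13) but was 1.38-fold lower in supplemented supernatant than in complete medium (-0.46 ± 0.0287, adjusted p 1.99e-15).

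Cd247, the zeta chain gene on chromosome 1, varied least among the CD3 chains. It ranged over 7775 to 8269 reads in supplemented supernatant, against 6868 to 7274 in supernatant. It ranged over 6798 to 7107 reads in methionine-free medium, against 8086 to 8517 in complete medium. In each pair the ranges did not overlap. Its rise on addition was 0.18 ± 0.0293 (adjusted p 8.61e-07) and its fall on removal 0.26 (log2 fold change -0.26 ± 0.0293, adjusted p 5.87e-10). The rise was not called when libraries were scaled to total reads (0.052, adjusted p 0.0847), a scaling that moved the median of all genes to -0.14 in this comparison, nor from the FPKM table (0.19, adjusted p 0.0922). Exons of Cd247 overlap those of Pou2f1 on the opposite strand by up to 2136 bases, and the strand used in counting is not given in the sources used here, so its value may hold reads of that gene.

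The CD8 chains went another way. Cd8a, which encodes the alpha chain that binds LCK through its cytoplasmic tail, was higher in each of the other media than in complete medium. It had 34429.9, 34825, 35696 and 33924 reads in supplemented supernatant, against 36718, 37376, 36892 and 37519 in supernatant. It had 30349, 30383, 31107 and 30666 reads in methionine-free medium, against 24756, 24022, 24409.9 and 24779 in complete medium. None of the 4 groups of libraries overlapped with another, and the 2 supernatants held the highest values. Cd8a rose by 0.32 ± 0.0255 in methionine-free medium (adjusted p 1.70e-13), by 0.60 ± 0.0255 in supernatant (adjusted p 7.88e-21) and by 0.50 ± 0.0255 in supplemented supernatant (adjusted p 9.19e-18), each against complete medium. These 3 comparisons share the complete medium libraries. Addition of methionine to supernatant gave a small fall of 1.07-fold (-0.10 ± 0.0255, adjusted p 8.71e-04). With the FPKM table in place of the depth-normalized one, neither the rise in methionine-free medium (0.27, adjusted p 0.0725) nor that fall (-0.022) was called. The sizes depended on the processing. Over all alternatives run, the difference on addition ranged from -0.49 to -0.022. The rise over complete medium ranged from 0.27 to 0.64 in methionine-free medium and from 0.53 to 0.97 in supernatant.

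Cd8b1, the beta chain gene, was nearly level, with a highest medium mean 1.13-fold over its lowest. It ranged over 20156 to 21914 reads in supplemented supernatant, against 20910.3 to 21401 in supernatant. It ranged over 18616 to 19015 reads in methionine-free medium, against 18884 to 20713 in complete medium. Within each of these pairs the ranges overlapped. The differences were -0.011 on addition (95% confidence interval -0.071 to 0.048, adjusted p 0.717) and -0.060 on removal (-0.12 to -0.00047, adjusted p 0.0563). The direction on removal depended on the scaling: scaling to total reads gave 0.10 (adjusted p 0.00152), quantile normalization gave 0.22 (adjusted p 2.48e-08) and TMM scaling gave -0.061 (adjusted p 0.0450). DESeq2 (-0.066, adjusted p 0.0492) and FPKM with a replicate block (-0.12, adjusted p 0.0231) also called a fall on removal. On addition a fall was called with quantile normalization (-0.24, adjusted p 6.74e-09). Total-read scaling called it too (-0.14, adjusted p 2.46e-05), with the median of all genes moved to -0.14.

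Cd8b1 (chr6:71322788-71337494) and Cd8a (chr6:71373427-71379173) lie on the plus strand of chromosome 6 with 35933 bases between them, in GRCm38. Although they are close, the ratio of Cd8a to Cd8b1 within a library was 1.63 to 1.68 in supplemented supernatant, 1.73 to 1.76 in supernatant, 1.60 to 1.67 in methionine-free medium and 1.20 to 1.31 in complete medium. By these reads, all libraries of complete medium lay below those of the other 3 media. In FPKM the ratios overlapped, with 0.354 to 0.578 in complete medium and 0.479 to 0.718 in supplemented supernatant. They ran from 0.491 to 0.836 in supernatant and from 0.438 to 0.770 in methionine-free medium. The Cd8a window, chr6:71373177-71373476 on the plus strand, is shown because Cd8a had the largest rise of the 10 in methionine-free medium. It held 1 E-box and no ETS or RUNX core.
Cd8a: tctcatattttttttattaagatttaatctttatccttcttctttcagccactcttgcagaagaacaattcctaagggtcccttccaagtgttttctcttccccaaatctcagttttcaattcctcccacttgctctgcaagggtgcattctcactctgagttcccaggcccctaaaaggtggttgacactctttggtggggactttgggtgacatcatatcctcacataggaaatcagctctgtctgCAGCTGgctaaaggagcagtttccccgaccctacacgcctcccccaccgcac
That E-box match begins 2 bases before the annotated start and runs across it.

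Both kinase genes were lower without added methionine. Lck encodes the Src-family kinase that opens the cascade. It had 26658, 27081, 27424 and 25617 reads in supplemented supernatant, against 12491, 12602, 12120.5 and 12692 in supernatant. It had 11203, 11404, 11492 and 11243 reads in methionine-free medium, against 27830.4, 27417, 27751 and 27347 in complete medium. The 2 media with methionine overlapped and lay above all libraries of the others, which did not overlap with each other. Lck was 2.14-fold higher in supplemented supernatant than in supernatant (1.10 ± 0.0265, adjusted p 2.17e-27) and 2.43-fold lower in methionine-free than in complete medium (-1.28 ± 0.0265, adjusted p 1.53e-29).

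Zap70 encodes the kinase that docks on the phosphorylated chains. It had 6647, 6596, 7075 and 6259.7 reads in supplemented supernatant, against 2988, 3399.8, 3012 and 3068 in supernatant. It had 3015, 2942, 3149 and 3108 reads in methionine-free medium, against 7906, 7754, 7549 and 7009.9 in complete medium. Supernatant and methionine-free medium overlapped, as did the 2 media with methionine, with a wide gap between. Zap70 was 2.13-fold higher on addition (1.09 ± 0.0408, adjusted p 3.03e-22) and 2.47-fold lower on removal (-1.31 ± 0.0408, adjusted p 1.34e-24).

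The kinase genes lie on different chromosomes, Lck at chr4:129548344-129573641 on the minus strand and Zap70 at chr1:36761798-36782818 on the plus strand of GRCm38. Their ratio hardly moved, with Zap70 at a mean of 0.249, 0.250, 0.269 and 0.274 times Lck in supplemented supernatant, supernatant, methionine-free medium and complete medium. Their furthest upstream windows are shown because the pair kept this ratio. The Lck window is chr4:129573592-129573891 on the minus strand and the Zap70 window chr1:36761548-36761847 on the plus strand, with capitals as before.
Lck: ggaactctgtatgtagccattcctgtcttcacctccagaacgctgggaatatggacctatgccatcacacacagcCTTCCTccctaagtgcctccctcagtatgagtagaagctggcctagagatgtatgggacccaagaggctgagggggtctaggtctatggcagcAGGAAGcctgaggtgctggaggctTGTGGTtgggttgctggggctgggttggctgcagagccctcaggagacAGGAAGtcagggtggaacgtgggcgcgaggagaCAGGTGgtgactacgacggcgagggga
Zap70: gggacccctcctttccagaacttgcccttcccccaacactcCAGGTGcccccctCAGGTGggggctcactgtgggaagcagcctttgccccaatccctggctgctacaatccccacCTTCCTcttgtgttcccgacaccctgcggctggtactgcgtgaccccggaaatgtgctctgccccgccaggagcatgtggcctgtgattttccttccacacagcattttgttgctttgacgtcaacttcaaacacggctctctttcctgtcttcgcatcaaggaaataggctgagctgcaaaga
The Lck window held 3 ETS cores, 1 RUNX core and 1 E-box. The Zap70 window held 1 ETS core and 2 E-boxes, and a RUNX core stood in another window of that gene.

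The adaptor genes went opposite ways. Lat, the membrane adaptor that ZAP-70 phosphorylates, had 15450.1, 15041, 15698 and 14699 reads in supplemented supernatant, against 8937, 9173, 8955 and 9225 in supernatant. It had 7815, 7933, 7726 and 8226 reads in methionine-free medium, against 12801, 12276, 12169 and 11759 in complete medium. By these reads no 2 media overlapped, and supplemented supernatant stood highest. Lat rose by 0.75 ± 0.0297 on addition (adjusted p 1.72e-21) and had a log2 fold change of -0.63 ± 0.0297 on removal (adjusted p 1.50e-19). It was 1.24-fold higher in supplemented supernatant than in complete medium (0.31 ± 0.0297, adjusted p 5.50e-11). From the FPKM table that last difference was not called (0.28, adjusted p 0.617). The FPKM ranges overlapped, with 347 to 672 in supplemented supernatant and 301 to 500 in complete medium.

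Lcp2, which encodes SLP-76, had 10500.5, 10173, 10480.5 and 10378 reads in supplemented supernatant, against 12870.3, 12845, 12994 and 12249.7 in supernatant. It had 12031, 12433, 12160.0 and 11962 reads in methionine-free medium, against 10231, 10410.0, 10485 and 11111 in complete medium. Here the medium without added methionine was the higher one of each pair, without overlap within a pair. Its log2 fold change was -0.29 ± 0.0286 on addition (adjusted p 3.04e-11) and 0.20 ± 0.0286 on removal (adjusted p 8.95e-08). The second of these was not called from the FPKM table (0.17, adjusted p 0.136). The ratio of Lcp2 to Lat within a library averaged 0.682 in supplemented supernatant and 1.40 in supernatant, and 1.53 in methionine-free medium and 0.863 in complete medium. By these reads, no library of a medium with methionine reached the lowest ratio of a medium without it. In FPKM some did, with ratios up to 0.329 in complete medium and down to 0.228 in supernatant.

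**Figure D2:**
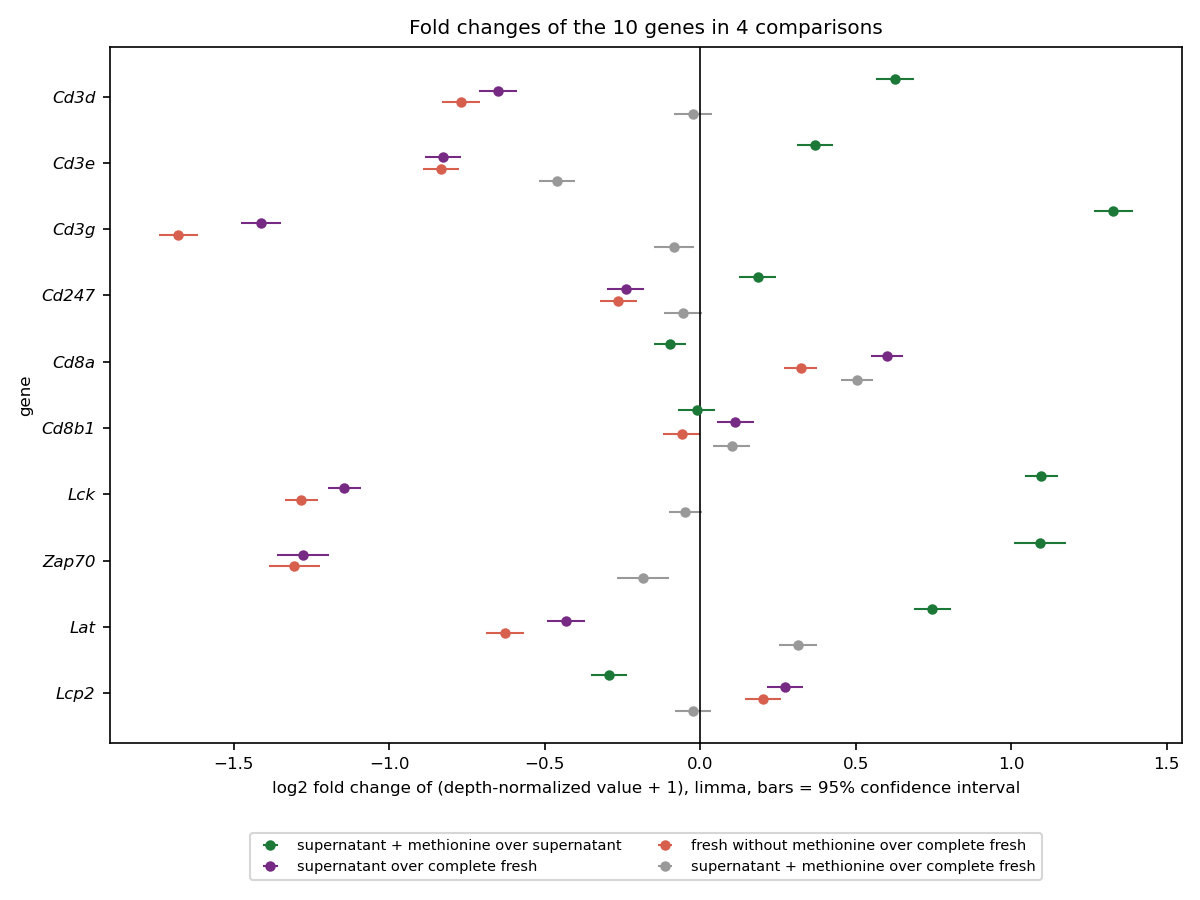
Log2 fold changes of the 10 genes in 4 comparisons (limma, bars are 95% confidence intervals; positive means higher in the medium named first). Green points lie right of 0 where purple and red points lie left of 0 for the 4 CD3 chains, Lck, Zap70 and Lat, and the reverse holds for Cd8a and Lcp2.

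Supernatant without added methionine resembled methionine-free medium in which of these genes were low. In supernatant against complete medium, where 85.5% of all genes were called, 7 of the 10 fell and 3 rose, with a median of -0.54, against 42.5% of all genes called lower and 43.0% called higher. The falls were led by Cd3g (-1.41 ± 0.0310), Zap70 (-1.28 ± 0.0408) and Lck (-1.14 ± 0.0265), followed by Cd3e (-0.83), Cd3d (-0.65), Lat (-0.43) and Cd247 (-0.24). Cd8a (0.60), Lcp2 (0.27) and Cd8b1 (0.11) rose. This comparison shares the complete medium libraries with that of methionine-free medium, so the values stand side by side and are not independent. From the FPKM table Lat (-0.55, adjusted p 0.129), Lcp2 (0.19, adjusted p 0.0985) and Cd8b1 (0.053, adjusted p 0.723) were not called.

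Set directly against methionine-free medium, supernatant gave small differences in the 10 genes, all upward where called. Of all genes, 26.8% were called here and 14.0% were called higher. Of the 10, 6 rose and none fell: Cd8a (0.28 ± 0.0255, adjusted p 3.16e-10), Cd3g (0.27 ± 0.0310, adjusted p 4.09e-08), Lat (0.20), Cd8b1 (0.17), Lck (0.14) and Cd3d (0.12). The differences of Lcp2 (0.069), Zap70 (0.028), Cd247 (0.024) and Cd3e (0.0060) were not called. None of the 10 was called in this comparison from the FPKM table, in which 32 of the 11684 genes tested were. With a replicate block, FPKM called 4 of the 10, against 1441 of those genes.

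In supplemented supernatant against complete medium, 6 of the 10 genes were called, near the share of 65.0% called over all genes tested. Cd8a (0.50 ± 0.0255), Lat (0.31 ± 0.0297) and Cd8b1 (0.10 ± 0.0290) were higher in supplemented supernatant, and Cd3e (-0.46 ± 0.0287), Zap70 (-0.19 ± 0.0408) and Cd3g (-0.085 ± 0.0310) were lower. The adjusted p was 0.0029 for Cd8b1, 1.88e-04 for Zap70 and 0.0171 for Cd3g. Cd3d (95% confidence interval -0.083 to 0.039), Cd247 (-0.12 to 0.0038), Lck (-0.10 to 0.0063) and Lcp2 (-0.082 to 0.035) were not called. These intervals rest on the spread between libraries, which may be technical, and on 1 way of scaling. The median absolute log2 fold change of the 10 was 0.093, against 0.229 over all genes tested. The call of Cd3g depended on single libraries: it was lost without complete medium replicate 0 (-0.071, adjusted p 0.0661) and without supplemented supernatant replicate 3 (-0.060, adjusted p 0.0917). It depended on the processing too. Quantile normalization lost it (-0.060, adjusted p 0.0733), as did FPKM (-0.075) without a replicate block (adjusted p 0.795) and with one (adjusted p 0.201). In FPKM values, 2 of the 10 genes were called, against 1958 of the 11684 genes tested in FPKM. Lat (0.28, adjusted p 0.617), Zap70 (-0.20, adjusted p 0.643) and Cd8b1 (0.097, adjusted p 0.670) were not called there.

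The effect of methionine, added minus not added, was compared between supernatant and fresh medium by an interaction term, which was called in 52.6% of all genes. It was called in 7 of the 10, upward in 2 and downward in 5, against 27.6% of all genes upward and 25.0% downward. Cd3g rose by 1.33 in supernatant (95% confidence interval 1.27 to 1.39) and by 1.68 in fresh medium (1.62 to 1.74), a difference of -0.35 ± 0.0438 (adjusted p 4.22e-08). Cd3e had the largest difference of the 10, with 0.37 in supernatant and 0.83 in fresh medium (-0.47 ± 0.0405, adjusted p 1.76e-11). The kinase genes were close to each other, with 1.10 in supernatant and 1.28 in fresh medium for Lck, and 1.09 in supernatant and 1.31 in fresh medium for Zap70. For Cd3d the values were 0.63 in supernatant and 0.77 in fresh medium. The effect was thus smaller in supernatant for these 5 genes. Lat went the other way, with 0.75 in supernatant and 0.63 in fresh medium (difference 0.12 ± 0.0420, adjusted p 0.0182), though from the FPKM table its difference was -0.057 (adjusted p 0.986). Cd8a fell less in supernatant (-0.10) than in fresh medium (-0.32). For Cd247, Cd8b1 and Lcp2 the difference was not called. In FPKM values, the difference was called in 1 of the 10, against 750 of the 11684 genes tested in FPKM. With a replicate block it was called in 5 of the 10, against 3942 of those genes.

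**Figure D3:**
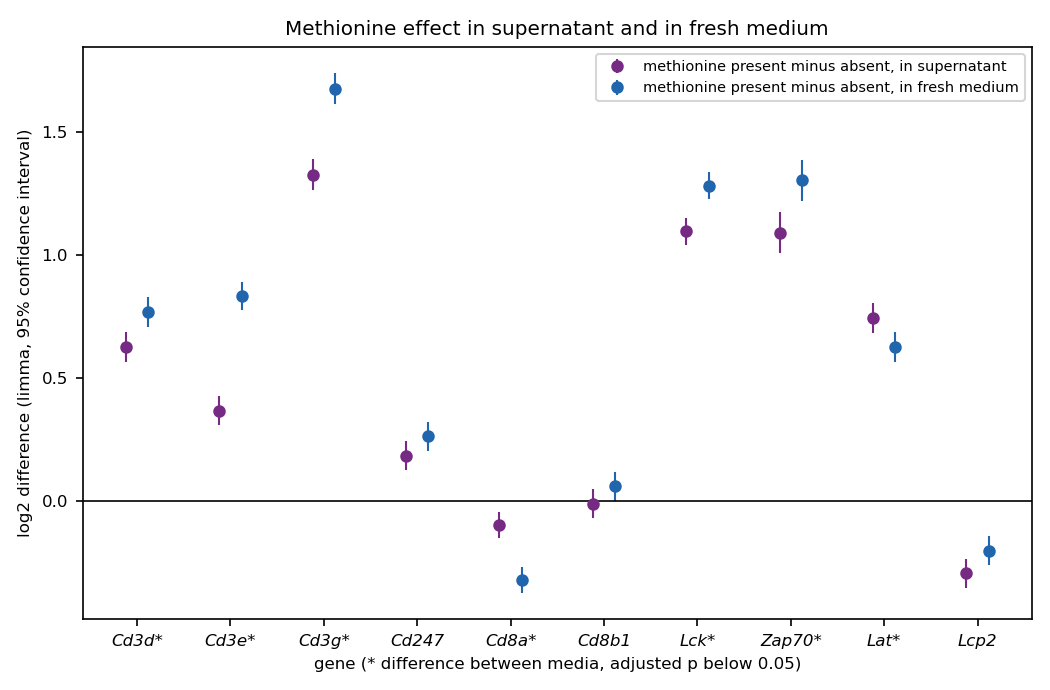
Log2 difference between medium with and without methionine for each of the 10 genes, in supernatant (purple) and in fresh medium (blue), with 95% confidence intervals from limma. Asterisks mark the 7 genes whose effects differed between the media; in 5 of them (Cd3d, Cd3e, Cd3g, Lck, Zap70) the purple point lies below the blue one and above 0.

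Ratios between genes within a library do not depend on how libraries are scaled. They are given as a description of unequal change between media, and since reads also depend on transcript length, a ratio of reads does not compare the levels of 2 genes. Cd8a had 1.30 times the reads of Lck in supplemented supernatant and 2.98 times in supernatant. The same ratio averaged 2.70 in methionine-free medium and 0.888 in complete medium. In FPKM, which are scaled to transcript length, that ratio averaged 0.683 in supplemented supernatant and 1.61 in supernatant, and 1.50 in methionine-free medium and 0.463 in complete medium. By either measure the coreceptor gene gained on the kinase gene where methionine had not been added. Among the CD3 chains, Cd3g to Cd3e averaged 1.97 in supplemented supernatant and 1.01 in supernatant, and 0.843 in methionine-free medium and 1.51 in complete medium. The gamma chain gene thus lost more than the epsilon chain gene. Lck to Fyn, the gene of the other Src-family kinase of T cells, averaged 3.42 in supplemented supernatant and 1.64 in supernatant, and 1.60 in methionine-free medium and 3.96 in complete medium.

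**Figure D4:**
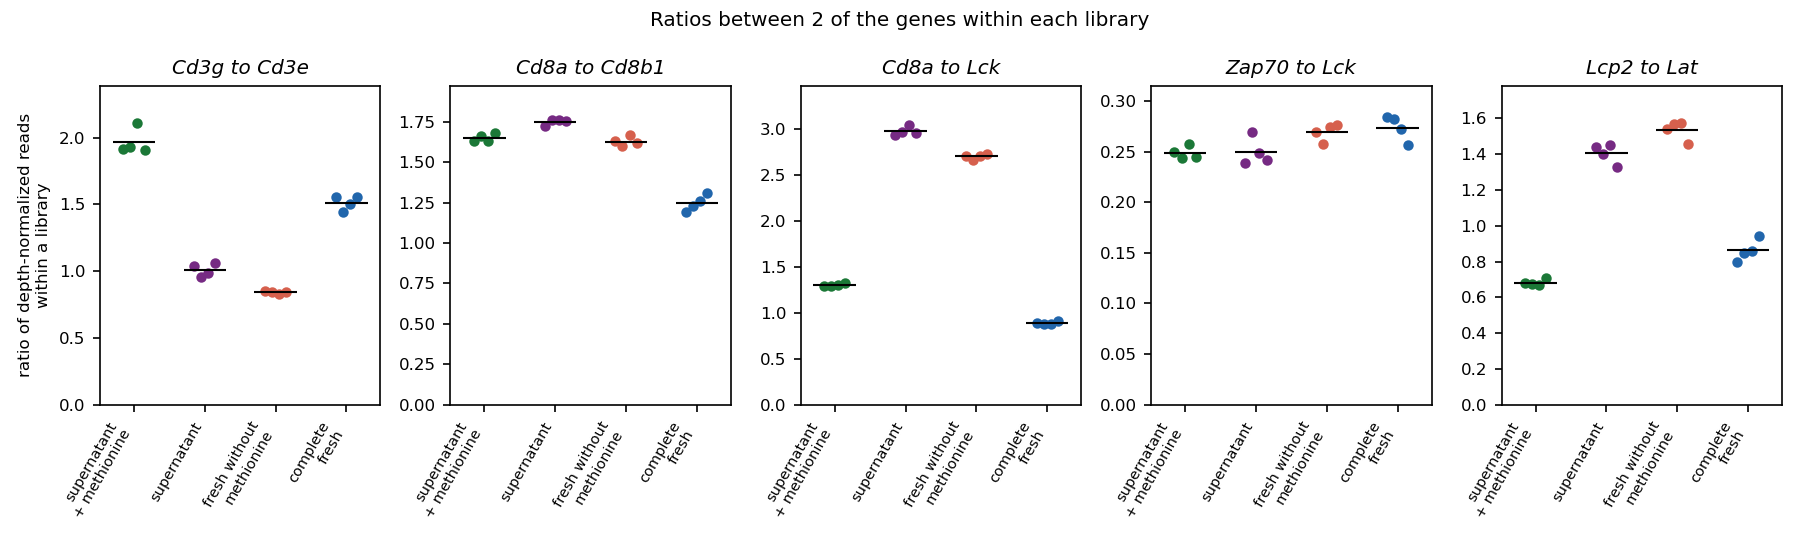
Ratio of the depth-normalized reads of 2 genes in the same library, for 5 pairs (points are libraries, lines are means of 4, axes from 0). The ratio Cd8a to Lck lies near 3 in supernatant and below 1 in complete medium, whereas that of Zap70 to Lck stays between 0.239 and 0.284 in all 16 libraries.

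Levels can be compared between genes in FPKM, which are scaled to transcript length. In complete medium Cd3g ranked first of the 10 with 472 ± 56.3 FPKM (SD, n = 4), ahead of Cd8b1 with 461 ± 41.5, Lck with 442 ± 52.8 and Lat with 374 ± 92.3, although these spreads overlap. Cd3d (290.4 ± 42.3), Cd3e (244 ± 19.5) and Cd8a (201.1 ± 26.1) came next, above Zap70 (132 ± 20.2), Cd247 (125 ± 4.14) and Lcp2 (92.0 ± 7.60). In methionine-free medium Cd8b1 led with 426 ± 55.1 FPKM, followed by Cd8a with 243 ± 30.1, and Cd3g was sixth with 151 ± 19.8. In supernatant the order was the same at these places, with 479 ± 54.4 for Cd8b1, 290.1 ± 40.1 for Cd8a and 175 ± 24.9 for Cd3g. In supplemented supernatant Cd8b1 (493 ± 49.2), Lat (461 ± 151) and Cd3g (449.6 ± 67.0) stood close together. Zap70 fell to 47.8 ± 11.7 FPKM in methionine-free medium and 52.1 ± 14.8 in supernatant, the lowest of the 10 in both. FPKM values spread more than depth-normalized reads, as for Lat in supernatant, where they ran from 178 to 413.

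For the 3 genes whose highest and lowest medium means differed by at least 1 on the log2 scale, the gene with the most similar profile over the 16 libraries was sought among 9509 genes with a mean of at least 100. Cd3g was most like Ncf1 (Pearson r = 0.998), whose means were 3195, 1116, 926 and 3228 reads in supplemented supernatant, supernatant, methionine-free medium and complete medium. Lck was most like Uba1 (r = 0.999) and Zap70 most like Idh3g (r = 0.997). Such profiles were common: 229 genes had an r over 0.99 with Cd3g, 325 with Lck and 192 with Zap70.

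The partners that act beside the 10 genes were counted from lists, to be read against all genes tested, of which 41.8% were called higher and 41.8% lower on addition, and 43.3% higher and 42.3% lower on removal. Of 17 receptor-proximal partners and substrates, 11 rose, 4 fell and 2 were not called on addition of methionine to supernatant (median 0.29, against -0.0041 over all genes tested), and 3 rose, 12 fell and 2 were not called in methionine-free against complete medium (median -0.47, against 0.0092). Skap1, an adaptor in the integrin arm, had 7729 ± 248 reads in supplemented supernatant and 2421 ± 91.2 in supernatant (SD, n = 4 each), a log2 fold change of 1.67, and it fell to 2316 ± 115 in methionine-free medium, against 7764 ± 101 in complete medium (-1.75). Vav1, a guanine nucleotide exchange factor bound by SLP-76, rose by 0.87 on addition, and Plcg1, the phospholipase that binds LAT, fell by 1.11 on removal. Nck1 and Sh2d2a, both adaptors, fell on addition (-0.78 and -0.60), and Nck1 rose on removal (0.51).

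Of 22 genes of the downstream module, 13 rose, 6 fell and 3 were not called on addition (median 0.38, with 41.8% of all genes higher and 41.8% lower), and 7 rose, 13 fell and 2 were not called on removal (median -0.41, with 43.3% of all genes higher and 42.3% lower). Mapk3 and Map2k1, which encode the kinases ERK1 and MEK1, rose on addition (1.62 and 1.27) and fell on removal (-2.24 and -1.82). Mapk3 had 3893 ± 259.9 reads in supplemented supernatant and 1269 ± 58.4 in supernatant, and 999 ± 31.8 in methionine-free medium and 4715 ± 168 in complete medium (SD, n = 4 each). Bcl10, an adaptor of NF-kappaB signalling, and Orai1, the pore of the calcium channel, fell on addition (-0.94 and -0.68). Sos1, a Ras exchange factor, and Bcl10 rose on removal (0.98 and 0.75).

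Of 23 negative regulators, 10 rose, 9 fell and 4 were not called on addition (median 0.049), close to the background of 41.8% of all genes in each direction. On removal 10 rose and 13 fell (median -0.12), with 43.3% of all genes higher and 42.3% lower. Ptpn6, which encodes the phosphatase SHP-1, rose on addition (1.29) and fell on removal (-1.63), as did Ubash3b, a phosphatase of the same receptor pathway (0.64 and -0.95). Dok1, an adaptor that restrains Ras signalling, and Socs1, a suppressor of cytokine signalling, went the opposite way. Dok1 averaged 1134 ± 99.3 reads in supplemented supernatant and 3418 ± 53.9 in supernatant (-1.59), and 3564 ± 104 in methionine-free medium and 911 ± 26.9 in complete medium (1.97). Socs1 had log2 fold changes of -0.96 on addition and 2.22 on removal.

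Of 12 costimulatory and adhesion partners, 7 rose, 3 fell and 2 were not called on addition (median 0.37, with 41.8% of all genes higher and 41.8% lower), and 3 rose and 9 fell on removal (median -0.76, with 43.3% of all genes higher and 42.3% lower). Cd27, a costimulatory receptor of the tumour necrosis factor receptor family, rose by 1.32 on addition and fell by 1.77 on removal. Ly9, a receptor of the SLAM family, rose by 1.23 on addition. Cd7 averaged 70.2 ± 8.26 reads in methionine-free medium and 336 ± 28.8 in complete medium (-2.25). Cd2, an adhesion receptor, fell on addition (-0.31) and rose on removal (0.61), Cd226 fell on addition (-0.49), and Icos rose on removal (0.17).

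Of 12 alternative chains and relatives of the receptor and its kinases, 6 were in the table. Trac, Trbc1, Trbc2, Trdc, Trgc1 and Trgc2 were not in it under these names, so they were not analysed here. Syk, the relative of Zap70 that dominates in B cells, averaged 59.7 ± 12.7 reads in supplemented supernatant and 82.6 ± 11.6 in supernatant (-0.47, adjusted p 0.0234). It averaged 81.9 ± 16.9 reads in methionine-free medium and 27.3 ± 7.13 in complete medium (1.57, adjusted p 4.80e-09). In FPKM, Zap70 stood at 73.9 times Syk or more in every library. Lat2, a relative of Lat, rose by 1.43 on addition and fell by 1.91 on removal, and Fcer1g, a signalling chain that can stand in for zeta, rose by 0.58 on addition and fell by 0.48 on removal. Lime1, a membrane adaptor that binds LCK, fell on addition (-0.42) and rose on removal (0.19).

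**Figure D5:**
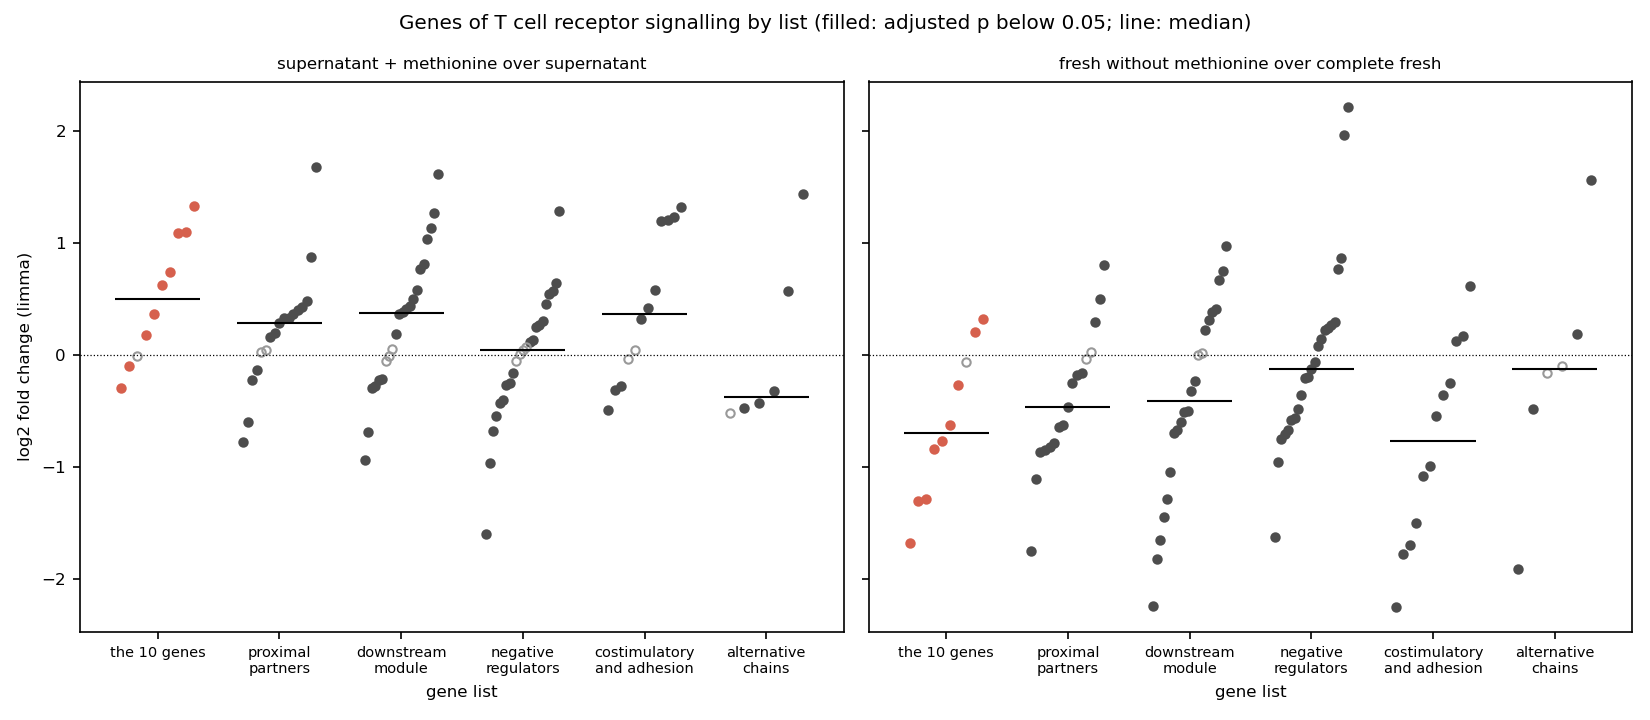
Log2 fold changes (limma) of the 10 genes (red) and of 5 companion lists (grey), on addition of methionine to supernatant (left) and in methionine-free against complete medium (right). Filled points passed an adjusted p of 0.05 and lines are list medians, which for the 10 genes are 0.50 on the left and -0.70 on the right.

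Some markers of other cells moved with methionine. The summed reads of 6 B cell markers ran from 364 to 387 in supplemented supernatant and from 739 to 858 in supernatant, and from 779 to 966 in methionine-free medium and from 505 to 549 in complete medium, most of it Cd79b. The sum of 6 melanoma markers ran from 91.0 to 144 in supplemented supernatant and from 231 to 257 in supernatant, and from 257 to 282 in methionine-free medium and from 103 to 134 in complete medium, most of it Pmel in the media without added methionine. Mlana was at 0 in all libraries of supplemented supernatant, Tyrp1 in those of methionine-free medium, and Dct and Tyrp1 in those of complete medium. For 6 natural killer cell markers, some of which activated CD8+ T cells also express, the sum ran from 3186 to 3361 in supplemented supernatant and from 2762 to 2914 in supernatant, and from 1868 to 2021 in methionine-free medium and from 1652 to 1828 in complete medium. Klra8 was at 0 in all libraries of supplemented supernatant and of complete medium. Myeloid markers (5 of 6 in the table) summed to between 157 and 219 in supplemented supernatant and between 152 and 176 in supernatant, and to between 142 and 211 in methionine-free medium and between 343 and 403 in complete medium. Most of that sum in complete medium was Cd68, whose log2 fold change was 0.99 on addition and -1.68 on removal. Gamma delta T cell markers (2 of 4 in the table) summed to at most 73.6. The 5 CD4 T cell markers summed to between 11101 and 13404 in supplemented supernatant and between 23368 and 25418 in supernatant, and between 20339 and 22603 in methionine-free medium and between 20701 and 22646 in complete medium, of which Ctla4, also made by activated CD8+ T cells, was the largest share in every medium. The list's members differed. All 5 fell on addition, and on removal 3 rose, Ctla4 fell (-0.19) and Cd4 was not called (-0.16, adjusted p 0.171). Zbtb7b, which encodes the CD4 lineage factor ThPOK, averaged 3208 ± 131 reads in supplemented supernatant and 3874 ± 195 in supernatant (-0.27), and 3672 ± 43.1 in methionine-free medium and 1781 ± 90.1 in complete medium (1.04). Foxp3, the regulatory T cell factor gene, averaged 156 ± 22.6 reads in supplemented supernatant and 233 ± 33.2 in supernatant (-0.57), and 196 ± 18.5 in methionine-free medium and 50.8 ± 2.46 in complete medium (1.92). Cd40lg averaged 20.7 ± 2.59 reads in supplemented supernatant and 44.6 ± 8.10 in supernatant (-1.07), and 38.5 ± 6.77 in methionine-free medium and 22.7 ± 3.39 in complete medium (0.73). The melanoma marker sum was highest on average in methionine-free medium, which is a fresh medium. Whether any of these other cells were present, and their part in the values of the 10 genes, was not tested.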

How the data were processed

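The strand, the annotation and the tool used in counting are not given in the sources used here. The submitters' processing notes name the aligners Bowtie2 (2.2.1) and TopHat2 (2.0.13), FastQC (0.11.3), Cuffdiff (2.2.1) and Cufflinks, and the builds mm10 and GRCm38, without role or order. The authors deposited 1 signal value per gene and library, called depth-normalized counts, covering 17159 genes. Multiplying by a library's own factor turned 100% of these into whole reads, within 0.01 of a read. They also deposited FPKM for 23107 genes.

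The test used log2(value + 1) for the 12469 genes (72.7%) whose mean reached 10 across all 16 libraries. A limma 3.58.1 model (R 4.3.3, mean-variance trend) with 4 group means was fitted, two-sided, with Benjamini-Hochberg adjustment over these genes. The added 1 slightly understates folds. The fitting code was tested on simulated data. For FPKM, log2(FPKM + 0.1) of 11684 genes whose mean reached 0.5 was used. Other alternatives were a pseudocount of 5, no filter, total-read, TMM and quantile scaling, no trend, a replicate block and leaving out each library. The count tests edgeR 4.0.16 and DESeq2 1.42.0 were run on recovered reads of 15 libraries. Replicate 1 of methionine-free medium was kept out of these count tests because its factor is near 1, with 1 read standing as 0.989 in its depth-normalized values. Its values also turned into whole reads.

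The 10 genes, the companion lists and the markers were chosen with earlier results of these data known. The text names all 10 genes and, per list and comparison, up to 2 called genes of largest rise and 2 of largest fall, except that some list members are counted but not reported by name here. Ratios of pairs of genes were chosen after their values had been seen. Coordinates come from GENCODE vM21 (GRCm38) and promoter windows from RefSeq (GRCm38.p6). Protein sequences were not used here.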

Additional observations from a re-analysis of the deposited data

Results flagged for a closer look

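The effect of methionine on 7 of the 10 genes differed between supernatant and fresh medium by the interaction term in limma, which compares the 2 effects directly (supernatant minus fresh medium, log2 scale). The difference was -0.47 for Cd3e (adjusted p 1.76e-11), -0.35 for Cd3g (adjusted p 4.22e-08), -0.21 for Zap70 (adjusted p 0.00233), -0.19 for Lck (adjusted p 9.58e-05) and -0.14 for Cd3d (adjusted p 0.00538), so the rise with methionine was smaller in supernatant for these 5 genes. It was 0.12 for Lat (adjusted p 0.0182), which rose more in supernatant, and 0.23 for Cd8a (adjusted p 3.37e-06), which fell less there. Among all genes tested, 27.6% had a called positive difference and 25.0% a called negative one. No library stood apart from the other 3 of its medium by Dixon's test at its 95% critical value in any of the 40 groups of values, that is, 10 genes in 4 media.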

How the results depend on the processing

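Directions of the large changes (Cd3d, Cd3g, Lck and Zap70 on addition and removal of methionine) held under every alternative run. The FPKM table gave fewer calls: 6786 genes in methionine-free against complete medium (10672 from depth-normalized values), 6717 in supernatant against complete medium (10664), 6027 in supplemented supernatant against supernatant (10433), 1958 in supplemented supernatant against complete medium (8106), 32 in supernatant against methionine-free medium (3344) and 750 for the interaction (6557). Of the 10 genes it called 2, 0 and 1 in the last 3 of these. Same-numbered libraries are not stated to be paired, and their residuals correlated by -0.0668 to 0.0680 over 24 pairs (5 of 16 libraries best with their own number), or 0.0926 to 0.479 in FPKM (13 of 16). The replicate block changed no call of the 10 genes from depth-normalized values (10655 genes called on removal). With the block, FPKM called 5759 of 11684 genes in supplemented supernatant against complete medium, 1441 in supernatant against methionine-free medium and 3942 for the interaction. Of the 10 genes, FPKM with the block called 4 in supplemented supernatant against complete medium, 4 in supernatant against methionine-free medium (Cd3g, Cd8a, Cd8b1 and Lat) and 5 for the interaction (Cd3e, Cd3g, Cd8a, Lck and Zap70). It also called the rises of Cd8a and Lcp2 on removal, those of Cd247 on addition and of Lcp2 in supernatant against complete medium, and the fall of Lat there, which FPKM without the block did not call. The cause of the calls still missing with the block was not tested. Total-read scaling moved the median of all genes to 0.17 on removal and -0.14 on addition.

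Signs turned in small differences only. For Cd8b1 they were 0.10 with total-read scaling and 0.22 with quantile normalization on removal, and 0.0060 with TMM scaling and 0.044 from FPKM, with or without the block, on addition. Lat's interaction was -0.057 from FPKM, with or without the block. In supernatant against methionine-free medium Cd3e was -0.0075 with total-read scaling and -0.0018 with edgeR. Leaving out 1 library gave ranges of -0.0092 to 0.020 for Cd3e and -0.014 to 0.048 for Zap70 in that comparison, -0.048 to 0.0020 for Cd3d and -0.039 to 0.0010 for Lcp2 in supplemented supernatant against complete medium, and -0.031 to 0.0090 for Cd8b1 on addition. Counts of called genes stayed within 1.5 times when any 1 library was left out. Depth does not limit the 10 genes, each with at least 2692 reads in a library.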

Other observations

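Where supplemented supernatant and complete medium were compared, several partners of the receptor differed more than most of the 10 genes did. The Ras exchange factor gene Sos1 was higher in supplemented supernatant (0.67), as were Socs1 (1.16), Cd2 (0.43) and Itgal, the alpha chain of the integrin LFA-1 (0.40). Lower there were Malt1, a protease of the NF-kappaB branch (-0.77), the costimulatory receptor gene Cd28 (-0.67), the diacylglycerol kinase gene Dgka (-0.57), the ubiquitin ligase gene Cblb (-0.52), Plcg1 (-0.43) and Tec (-0.56). Values are log2 fold changes, and all passed an adjusted p of 0.05 over all genes tested.

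Among negative regulators Cblb averaged 7697 ± 175 reads in supplemented supernatant, 10366 ± 331 in supernatant, 10553 ± 356 in methionine-free medium and 11015 ± 112 in complete medium (SD, n = 4 each), so that supplemented supernatant stood apart from the other 3 media. Its log2 fold change was -0.43 on addition of methionine to supernatant, and -0.062 on removal from fresh medium (limma, adjusted p 0.0483). Methionine thus went with a fall in supernatant and with little change in fresh medium (interaction term -0.49, adjusted p 8.64e-12).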
